A study of Mus musculus with 29 samples.

Results

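The genes described here are 6 families of the mouse oocyte and early embryo that lie in tandem arrays: Zscan4, Obox, Tdpoz, Usp17l, Pramel and Oog. They are the protein-coding genes of chromosomes 1 to 19 whose symbol starts with Zscan4, Tdpoz, Obox, Pramel, Pramef, Usp17l or Oog. This rule uses symbols alone, but it was set with earlier results of these data known. The rule gave 72 of 20558 protein-coding genes: 45 Pramel, 8 Tdpoz, 6 Obox, 5 Usp17l, 4 Zscan4 and 4 Oog genes. No symbol began with Pramef (count 0), and 2 further genes, Pramel and Pramel3, lie on chromosome X, which the data did not cover.

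Zscan4 genes encode SCAN-domain zinc finger proteins that are transcribed in a short burst in 2-cell embryos and act in telomere maintenance. Obox genes encode oocyte-specific homeobox proteins, and Tdpoz genes encode proteins that join a TRAF-like domain to a BTB/POZ domain. Usp17l genes encode deubiquitinases of the DUB family, first described as cytokine-inducible genes of blood cells. Pramel genes encode PRAME-like leucine-rich repeat proteins, and the oogenesins (Oog) are PRAME-related proteins of oocytes. H2Aub is histone H2A with a single ubiquitin near its end, written by Polycomb repressive complex 1 at many silent or weakly transcribed regions.

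The study measured H2Aub (24 libraries) and H3K27me3 (5 libraries) by CUT&RUN, in which an antibody-tethered nuclease frees the DNA around a mark, in 16 groups of 1 to 3 libraries. Gdf9-Eed (fl/fl) females, in which a driver active in growing oocytes removes the Polycomb subunit Eed, gave 6 H2Aub libraries: GV oocytes (B6/129 mixed), and 4-cell and morula embryos by PWK males (B6/129 mixed x PWK), with 2 each. PR-DUB (OE) 4-cell embryos (B6/DBA x PWK), with more of the deubiquitinase that removes H2Aub, gave 1 H2Aub and 2 H3K27me3 libraries, and PR-DUB (CTR) embryos of the same cross the same numbers. The 16 wild-type H2Aub libraries came from 8 stages: Eed (fl/fl) animals (B6/129 mixed, embryos x PWK) for GV oocytes, 4-cell embryos, morulae and part of the 2-cell embryos, and B6/DBA animals (embryos x PWK) for MII oocytes, 1-cell embryos, the other 2-cell embryos, ICM and epiblasts of embryonic day 6.5, while the wild-type GV H3K27me3 library was B6/DBA. The 1-cell and later embryos and the epiblasts thus carry a PWK genome, and the libraries with a stated number are pools of oocytes or embryos, apart from epiblasts profiled singly. The values analysed here are 1 table, in which each 5 kb bin of chromosomes 1 to 19 carries an H2Aub type from 1 to 5. The types have no key, so a number stands for a category and not for a level of H2Aub. No library, stage or genotype has a value of its own, so no spread and no test exist, the depth is unknown, and the comparisons between stages and genotypes were not analysed here. Intervals below cover counting of genes only, and neighbouring members share segments.

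Type 1 held most of the bodies of 61 of the 72 members (84.7%, exact 95% Clopper-Pearson interval 74.3 to 92.1), against 37.2% of all protein-coding genes. The other members were in type 3 (5 genes, 6.94%), type 2 (4 genes, 5.56%) and type 5 (2 genes, 2.78%), against 33.8%, 5.44% and 9.53% of all protein-coding genes. No member was in type 4 (0 genes), which held 14.0% of all protein-coding genes. All 4 Zscan4, all 8 Tdpoz and all 5 Usp17l genes were in type 1, with 5 of 6 Obox, 36 of 45 Pramel and 3 of 4 Oog genes. Other protein-coding genes of the same chromosomes, weighted by where the members lie, were in type 1 in 39.5% of cases. By chromosome, type 1 held 18 of 18 members on chromosome 5, 8 of 8 on chromosome 3, 14 of 15 on chromosome 7, 2 of 2 on chromosome 12, 19 of 27 on chromosome 4 and 0 of 2 on chromosome 2. Member bodies were short (median 6.24 kb, against 17.7 kb in other protein-coding genes), and 70 of 72 lay wholly in 1 type, against 68.7% of all. Wholly within type 1 lay 60 members, and 24.9% of all protein-coding genes.

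**Figure D1:**
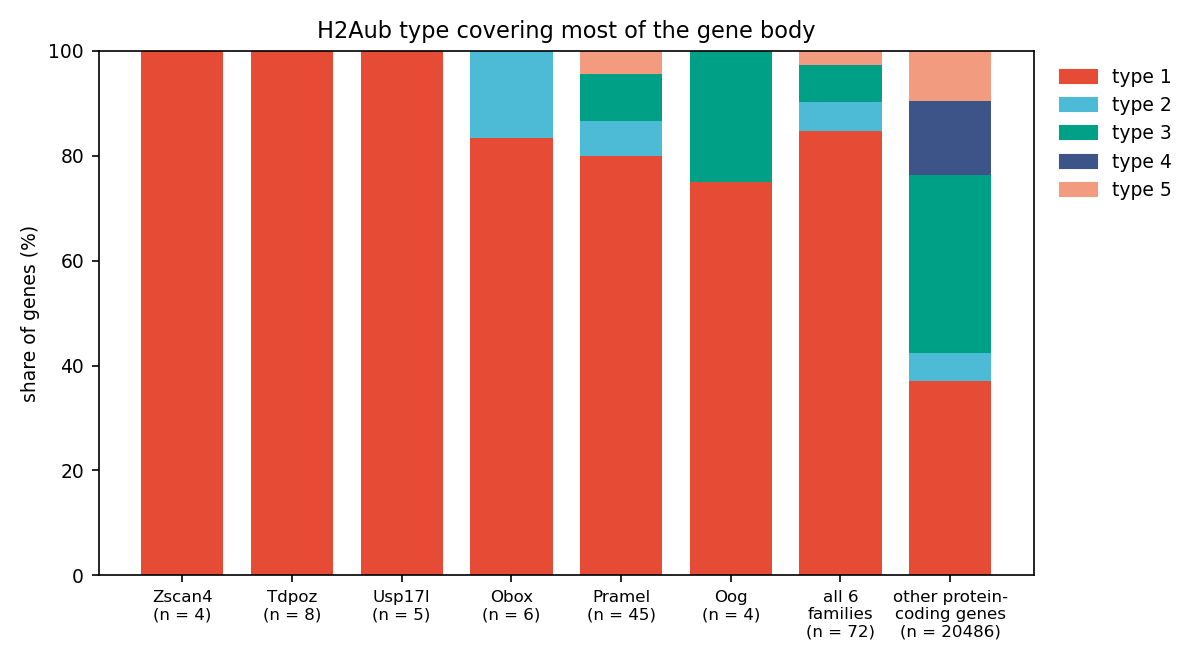
Share of genes (%, y axis) by the type that covers most of the gene body, for each family, all 72 members and the 20486 other protein-coding genes (x axis). Type 1 fills the bars of Zscan4, Tdpoz and Usp17l, reaches 84.7% over all members, and reaches 37.0% in the other genes.

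The 4 Zscan4 genes lay in a single type 1 segment of chromosome 7, which ran from 10640001 to 11730000 (1090 kb, mm10) and ranked 22 by length among 7926 type 1 segments that do not begin a chromosome. Zscan4b (10900740 to 10905050), Zscan4c (11005745 to 11010547), Zscan4d (11161643 to 11166148) and Zscan4f (11397915 to 11402318) all had their whole body in it. Zscan4d is the copy that leads in 2-cell embryos, and Zscan4c the one that leads in embryonic stem cells. With 100 kb on each side, the cluster was type 1 throughout (100% of the window). Its nearest protein-coding neighbours were the vomeronasal receptor genes Vmn1r71, at 151 kb, and Vmn1r72, at 267 kb, both in type 1. Another 5 Zscan4 loci annotated as pseudogenes or other non-coding types were also in type 1 (5 of 5).

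The start-site windows of Zscan4c (chr7:11005495-11005794, plus strand) and Zscan4d (chr7:11166099-11166398, minus strand) are printed because the 2 copies share both a type and nearly all of their letters. These and the sequences below are RefSeq windows of GRCm38.p6, the mm10 assembly, from 250 bases before to 50 after the annotated start, read 5′ to 3′. Capitals mark TATAA and a Dux-like string, which is TGATT and ATCA with any 2 bases between them, or its reverse complement.
Zscan4c: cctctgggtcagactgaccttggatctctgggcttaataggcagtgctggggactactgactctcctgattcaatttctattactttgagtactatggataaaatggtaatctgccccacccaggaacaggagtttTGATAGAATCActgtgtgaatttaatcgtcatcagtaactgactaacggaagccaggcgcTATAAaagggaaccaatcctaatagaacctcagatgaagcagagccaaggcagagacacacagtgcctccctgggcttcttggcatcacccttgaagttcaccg
Zscan4d: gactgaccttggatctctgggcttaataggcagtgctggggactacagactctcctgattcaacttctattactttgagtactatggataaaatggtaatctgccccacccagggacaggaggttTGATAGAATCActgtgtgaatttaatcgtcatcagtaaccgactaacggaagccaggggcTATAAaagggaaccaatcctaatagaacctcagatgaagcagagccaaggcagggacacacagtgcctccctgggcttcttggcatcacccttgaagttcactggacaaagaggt

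The pair matched at 281 of 289 aligned columns (97.2%), and the 6 pairs of Zscan4 windows ranged from 95.3% to 99.3%. The Dux-like string, named for its likeness to the one bound by the 2-cell factor Dux, stood in all 4 Zscan4 windows, in each as TGATAGAATCA, which is its reverse complement. It occurred in 0.231% of all 16457 protein-coding windows (38), searched on both strands, and in no window of the other families (count 0). The 4 copies are near-duplicates, so they do not count as separate occurrences.

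The Obox genes, also on chromosome 7, were split between types. Obox7 (14659708 to 14665996), Obox2 (15388851 to 15398545), Obox1 (15547257 to 15556846) and Obox3 (15625306 to 15639777) shared a type 1 segment from 14630001 to 15665000 (1035 kb, rank 26). Obox6 (15833250 to 15839679) lay in a second type 1 segment of 130 kb. Obox5 (15750370 to 15759274), between Obox3 and Obox6, lay wholly in a type 2 segment of 55 kb, which held no other member. From Obox3 to Obox6 the types ran type 1, type 3 (15 kb), type 1 (55 kb), type 2 (55 kb) and type 1 (130 kb). The next protein-coding gene beyond Obox6 was Crx, a homeobox gene of photoreceptors, at 26.3 kb and in type 1. Of the 47 Obox loci annotated as pseudogenes or other non-coding types, 46 were in type 1, against 37.2% of all protein-coding genes. These included 45 of 45 on chromosome 7.

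Obox5 (chr7:15750120-15750419, plus strand) and Obox7 (chr7:14659458-14659757, plus strand) are printed because they are close copies that carry different types. Capitals mark TATAA.
Obox5: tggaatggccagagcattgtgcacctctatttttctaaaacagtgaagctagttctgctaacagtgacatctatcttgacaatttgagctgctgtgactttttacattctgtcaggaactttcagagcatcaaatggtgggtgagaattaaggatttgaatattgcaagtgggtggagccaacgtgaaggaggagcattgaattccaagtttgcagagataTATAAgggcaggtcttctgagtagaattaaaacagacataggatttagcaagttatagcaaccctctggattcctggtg
Obox7: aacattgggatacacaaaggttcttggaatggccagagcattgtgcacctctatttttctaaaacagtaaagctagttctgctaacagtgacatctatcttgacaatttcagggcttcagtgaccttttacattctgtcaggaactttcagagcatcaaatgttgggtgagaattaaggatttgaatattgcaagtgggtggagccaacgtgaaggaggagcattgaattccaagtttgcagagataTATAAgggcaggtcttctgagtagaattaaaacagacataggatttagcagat

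The 2 windows shared a run of 134 bases and matched at 267 of 277 aligned columns (96.4%, 10 differences), with start sites 1090 kb apart. Obox5 was in type 2 and Obox7 in type 1. Obox5 also shared runs of 82 bases with Obox1 and with Obox2, both in type 1. Only 1 further pair of members that shared a run of at least 50 bases differed in type, Pramel11 (type 1) and Pramel24 (type 2), with 78 bases. Of the 43 pairs that shared such a run, 4 were of different types.

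Of the Tdpoz genes, 7 formed a cluster on chromosome 3 and Tdpoz8 stood alone. Tdpoz2, Tdpoz1, Tdpoz4, Tdpoz3, Tdpoz5, Tdpoz9 and Tdpoz7, in this order from 93651542 to 94072644, lay wholly in 1 type 1 segment of 730 kb (93600001 to 94330000, rank 56). Tdpoz1 is the founding gene of the family, cloned from 2-cell embryos. On the lower side the cluster met type 2, in which S100a10, a calcium-binding protein gene at 86.9 kb, lay. On the upper side type 1 went on past Spopfm2, a related BTB/POZ gene at 102 kb. The window with 100 kb on each side was 92.2% type 1 and 7.80% type 2.

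Tdpoz8 (93068823 to 93075505) had 82.4% of its body in type 1 and 17.6% in type 3. Its type 1 segment was 40 kb long and lay between type 3 (10 kb) and type 2 (30 kb). Its neighbours were skin genes: Lce1m, a cornified envelope gene in type 4, and Crnn, the cornulin gene in type 3. Only 19.4% of the window around Tdpoz8 was type 1, with 29.8% type 5 and 26.6% type 4. The start-site bin of Tdpoz8 was type 3, and it was the only member of 59 with a start-site window whose start-site bin and body had different types. By the start-site bin, 47 of 59 members were in type 1 (79.7%), against 32.2% of protein-coding genes with a window.

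Tdpoz5 (chr3:93961265-93961564, minus strand) and Tdpoz7 (chr3:94072595-94072894, minus strand) are printed because the copies differ by a single base, in capitals.
Tdpoz5: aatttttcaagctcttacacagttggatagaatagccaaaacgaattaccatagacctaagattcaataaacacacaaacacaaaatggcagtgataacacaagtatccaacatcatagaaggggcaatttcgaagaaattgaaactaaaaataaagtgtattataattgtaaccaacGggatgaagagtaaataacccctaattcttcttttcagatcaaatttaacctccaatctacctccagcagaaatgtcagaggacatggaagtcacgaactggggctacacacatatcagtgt
Tdpoz7: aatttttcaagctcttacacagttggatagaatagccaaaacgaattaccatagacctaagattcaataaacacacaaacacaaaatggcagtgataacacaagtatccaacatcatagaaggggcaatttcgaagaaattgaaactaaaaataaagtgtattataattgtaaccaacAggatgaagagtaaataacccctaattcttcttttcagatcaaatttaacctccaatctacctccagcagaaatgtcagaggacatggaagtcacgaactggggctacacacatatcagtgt

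Counted from 1 at the 5′ end of the window, the change from Tdpoz5 to Tdpoz7 is G179A, and 299 of 300 bases matched across start sites 111 kb apart. Tdpoz1 and Tdpoz9 shared a run of 236 bases, with start sites 379 kb apart. Both pairs lay in the same type 1 segment. In the Tdpoz5 and Tdpoz7 windows the bases from the annotated start begin with atg, and both bodies are 1.02 kb long. Whether the annotated starts are where transcription begins was not tested.

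The Usp17l genes lay in 2 clusters on chromosome 7, each in a type 1 segment beside olfactory receptor genes in type 5. Usp17ld (103250086 to 103252505) and Usp17lc (103416696 to 103419174) lay in a type 1 segment of 195 kb, bordered by type 5 on both sides (60 kb and 670 kb). The nearest genes outside, Olfr594 and Olfr605, were in type 5, while 7 olfactory receptor genes between the pair were in type 1. Usp17le (104767961 to 104777470), Usp17lb (104840257 to 104842583) and Usp17la (104857016 to 104862667) lay in a type 1 segment of 220 kb with type 5 on the lower side (80 kb). There Olfr663, the lower neighbour, was in type 5 and Olfr665, the upper one, in type 1. The windows with 100 kb on each side were 60.9% and 70.5% type 1, and 39.1% and 27.1% type 5. Usp17la and Usp17lc, known as Dub1 and Dub2, are the copies first described, and the windows of Usp17lc and Usp17ld matched at 96.8% of aligned columns.

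The Pramel genes formed the largest arrays and held 9 of the 11 members outside type 1. On chromosome 5, all 18 members from Pramel33 (93481827 to 93536331) to Pramel50 (95732092 to 95736173) lay in 1 type 1 segment of 2550 kb, which ran from 93330001 to 95880000. That segment ranked 3 by length among the 7926, and the 10 other protein-coding genes between its Pramel genes were all in type 1. Ccng2, a cyclin gene 206 kb below the cluster, was in type 3, and E330014E10Rik, 39.7 kb above it, in type 1. Type 1 segments of at least 1 Mb held 26 of the 72 members (36.1%), from the Pramel, Zscan4 and Obox arrays, against 1.97% of all protein-coding genes.

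Pramel37 (chr5:94070496-94070795, minus strand), chosen after its values were seen, is printed because its window is letter for letter that of Pramel50, with start sites 1670 kb apart in the same segment. Capitals mark TATAA.
Pramel37: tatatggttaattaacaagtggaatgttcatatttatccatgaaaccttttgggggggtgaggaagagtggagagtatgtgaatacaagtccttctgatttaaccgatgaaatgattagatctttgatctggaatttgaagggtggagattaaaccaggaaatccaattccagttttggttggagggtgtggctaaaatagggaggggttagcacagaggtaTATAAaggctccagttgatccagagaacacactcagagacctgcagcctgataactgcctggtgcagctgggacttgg

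Chosen in the same way, Pramel39, Pramel43, Pramel46 and Pramel49 shared runs of at least 251 bases with each other and of 211 bases with Pramel37 and Pramel50. The windows of Pramel33 and Pramel35 matched at 299 of 300 bases. All of these genes lay in the 2550 kb segment.

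The chromosome 4 array of 23 members, from Pramel1 (143394441 to 143399819) to Pramel13 (144391674 to 144408467), changed type many times. Its 3 Oog genes lay among 20 Pramel genes. Pramel1, the first member, lay in type 3 (25 kb segment), Pramel12 in a type 1 segment of 15 kb, and Oog4 (143437164 to 143450324) in type 3 (50 kb). Pramel20, Pramel21 and Pramel22 then lay in type 1 (190 kb), Pramel23 and Pramel24 in type 2 (40 kb), and Pramel25, Pramel26 and Pramel27 in type 1 (105 kb). The following 10 members, among them Oog3 (144157556 to 144162651) and Oog2 (144190717 to 144196934), lay in a type 1 segment of 485 kb (rank 144). The last members, Pramel15 and Pramel13, lay in type 3 (45 kb). All members of the array in type 3 thus stood at its ends, Pramel1 and Oog4 on either side of Pramel12 at the start and Pramel15 and Pramel13 at the close. Below the array lay Lrrc38, a potassium channel subunit gene, in type 4, and above it 1700012P22Rik in type 1. Within the array 80.4% of the sequence was type 1, against 69.2% of the window with 100 kb on each side.

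**Figure D2:**
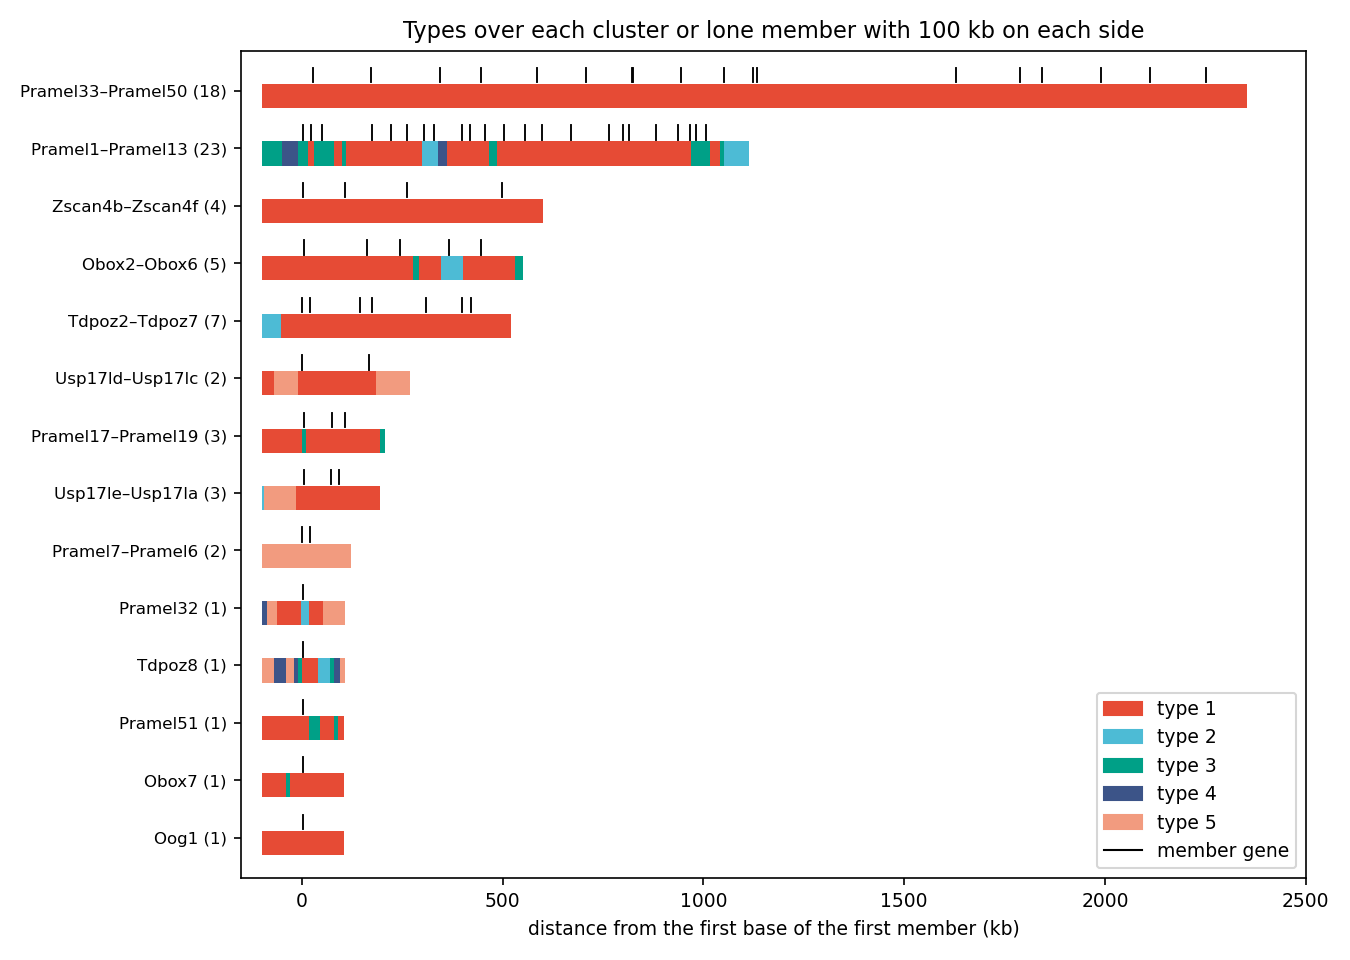
Types over each cluster or lone member with 100 kb on each side (x axis: distance in kb from the first base of the first member; number of members in brackets; ticks mark members). The arrays of Pramel33 to Pramel50 and Zscan4b to Zscan4f are type 1 throughout, that of Pramel1 to Pramel13 alternates, and Pramel7 and Pramel6 lie in type 5.

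Pramel1 (chr4:143394191-143394490, plus strand) is printed because its window differs from those of the other members by its CpG, in capitals.
Pramel1: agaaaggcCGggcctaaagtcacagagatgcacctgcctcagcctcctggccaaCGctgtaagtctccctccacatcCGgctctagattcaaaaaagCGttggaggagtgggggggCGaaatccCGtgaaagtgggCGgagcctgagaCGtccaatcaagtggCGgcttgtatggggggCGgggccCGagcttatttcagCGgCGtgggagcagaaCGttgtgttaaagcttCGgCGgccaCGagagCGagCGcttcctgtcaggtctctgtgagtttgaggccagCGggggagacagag

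Pramel1 had 20 CpG and 60.0% G+C, and Pramel13, at the other end of the array, had 7 CpG. The windows of the 48 members in type 1 had at most 4, and so did 9 of the 11 windows of members in other types.

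The remaining Pramel genes were in small groups. Pramel7 (87489088 to 87492418) and Pramel6 (87506565 to 87510865) on chromosome 2, both linked to the naive state of pluripotent cells, lay in a type 5 segment of 2615 kb. Their neighbours Olfr1126 and Olfr153 are olfactory receptor genes in the same type. Pramel32 on chromosome 4 (88627320 to 88634186) lay in a type 2 segment of 20 kb between type 1 segments of 60 and 35 kb, amid interferon alpha genes. Of its neighbours, Ifna12 was in type 1 and Ifna13 in type 2. Pramel17 (101834969 to 101844022) had 99.6% of its body in a type 3 segment of 10 kb, while Pramel18 and Pramel19, in the same cluster, lay in type 1 (185 kb). The leptin receptor gene Lepr below this cluster and Gm12790 above it were in type 1. On chromosome 12, Oog1 (87602665 to 87608845) and Pramel51 (88175589 to 88181894) stood singly in type 1 segments of 355 and 330 kb, with Gm8300 and Gm4027 beside Oog1 and Gm5955 and Gm5662 beside Pramel51, all in type 1.

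Over the 9 clusters with 100 kb on each side, 85.3% of bins were type 1 (1174 of 1376), against 32.1% of all bins, and the flanks taken alone were 61.4% type 1. This pooled flank share joined unlike clusters. The flanks were 100% type 1 around the chromosome 5 Pramel and the Zscan4 clusters, 92.5% around Pramel17 to Pramel19, 90.0% around Obox2 to Obox6 and 75.0% around Tdpoz2 to Tdpoz7. They were 55.0% around the Usp17le cluster, 27.5% around the Usp17ld cluster, 12.5% around the array of Pramel1 to Pramel13 and 0.0% around Pramel7 and Pramel6, the last 3 below the share of all bins. Within 25 kb outward of the outermost members type 1 took 75.0% of the sequence. Its share was 53.8% at 75 to 100 kb, 50.0% at 225 to 250 kb and 22.8% at 325 to 350 kb, its lowest value, and then 41.6% at 425 to 450 kb and 37.7% at 475 to 500 kb. Other protein-coding genes inside the clusters, 23 in all, were in type 1 in 23 cases, against 37.2% of all protein-coding genes. Of the 23, 10 lay in the chromosome 5 Pramel cluster and 7 in the Usp17ld cluster, each in a single segment, so they are not separate cases. Counting each cluster or lone member once by its leading type, 12 of 14 were type 1 (85.7%), the others being the Pramel7 cluster and Pramel32. Obox7 and the Obox2 to Obox6 cluster were counted separately, though both have members in the type 1 segment of 1035 kb.

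**Figure D3:**
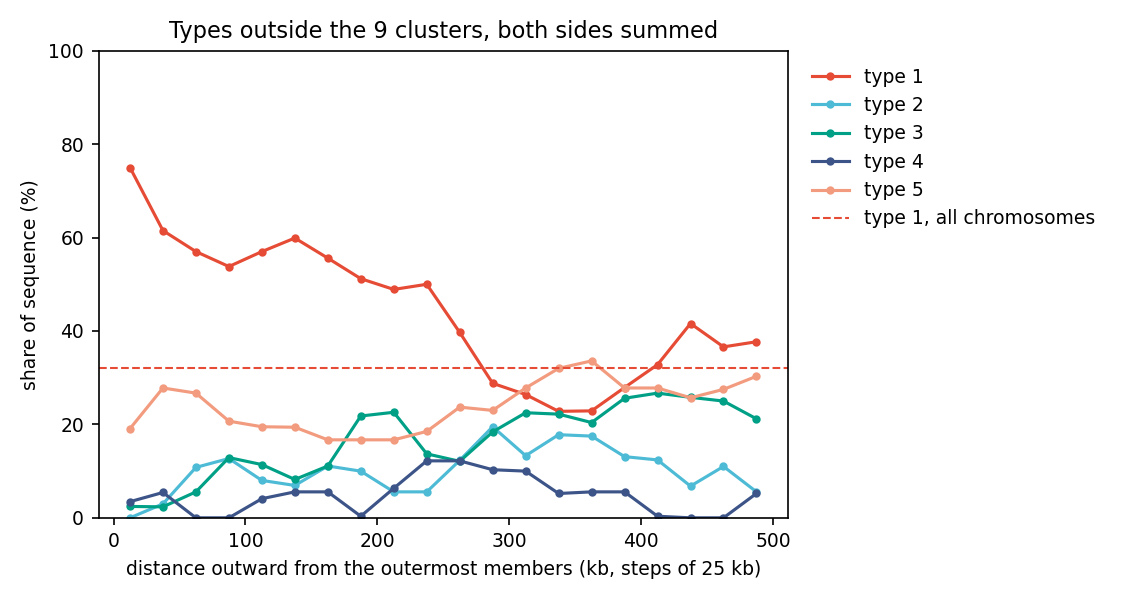
Share of sequence in each type (%, y axis) by distance outward from the outermost members of the 9 clusters (x axis, kb, in steps of 25 kb), both sides summed; the dashed line is type 1 over chromosomes 1 to 19. Type 1 is 75.0% next to the clusters, lowest at 325 to 350 kb (22.8%) and 37.7% at 475 to 500 kb, against 32.1% over all bins.

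Start-site windows were found for 59 of 72 members and for 16457 protein-coding genes. The members' windows held a median of 1 CpG (range 0 to 20), against 14 in other protein-coding genes, and a median of 43.3% G+C, against 56.7%. At most 4 CpG were found in 57 of 59 member windows (96.6%), against 28.1% of all. Members in type 1 differed in this from the other genes in type 1: their median was 1 CpG, against 18 CpG in 6281 other type 1 genes. TATAAA, searched on both strands, occurred in 22 member windows (37.3%), against 13.5% of all and 29.3% of the 4570 other genes with at most 4 CpG. TATAA, the first letters of that string, occurred in 41 (69.5%), against 22.9% of all and 46.3% of those other genes with few CpG. On the gene's own strand and starting 40 to 20 bases before the start site, where TATA boxes usually lie, TATAA occurred in 23 windows (39.0%), against 4.72% of all and 9.47% of the other genes with few CpG. It was so placed in 18 of 48 members in type 1 (37.5%) and 5 of 11 in other types (45.5%). The homeobox core TAATCC, on both strands, was found in 9 member windows (15.3%), against 6.51% of all and 9.69% of the other genes with few CpG, among them 3 of 6 Tdpoz windows. A string in a window is a match of letters and not a measured site, and its place is counted from the annotated start. Near-identical windows, such as those of Pramel37 and Pramel50, each count in these shares, so their strings are not separate occurrences.

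Many windows of these families shared long runs of identical bases. A run of at least 50 bases was shared with another gene's window by 43 of 59 members (72.9%), against 8.26% of all protein-coding genes, and a run of 100 bases by 30 (50.8%), against 4.79%. Between members, 43 of 817 pairs within a family (Oog taken with Pramel) shared at least 50 bases, and 0 of 894 pairs between families did, where the longest run was 15 bases. Members that shared a run were in type 1 in 40 of 43 cases (93.0%), and members that did not in 8 of 16 (50.0%). Among other protein-coding genes the shares were 70.6% of 1316 that shared a run and 35.5% of 15082 that did not. With at most 4 CpG, they were 69.1% of 994 other genes that shared a run and 26.3% of 3576 that did not. The share in type 1 was thus higher where the window repeated elsewhere, in the members and outside them. Many members that shared a run lie in the same segment, so they are not separate cases. The gene-free starts of the 19 chromosomes, 58.3 Mb in all, were 99.2% type 1, and they are part of the 32.1% of all bins. Whether reads could be placed in those starts, and how far they could be placed uniquely in the arrays, was not tested. How many copies the B6, 129, DBA and PWK genomes carry was not tested either.

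**Figure D4:**
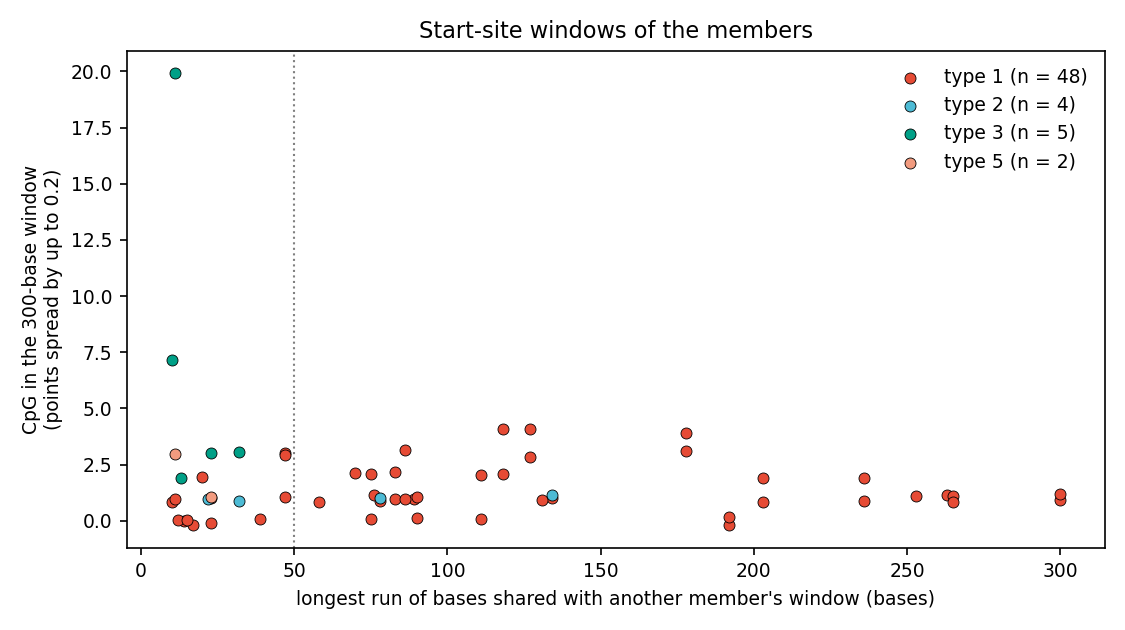
CpG in the 300-base start-site window (y axis, count) against the longest run of bases shared with another member's window (x axis, bases; dotted line at 50) for 59 members, coloured by type. Members beyond the line are type 1 apart from Obox5 and Pramel24 in type 2, and Pramel1 stands apart with 20 CpG.

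Lists set beside these families had type 1 shares from 21.7% to 80.0%, against 37.2% of all protein-coding genes. Other genes of the 2-cell stage were in type 1 in 6 of 11 cases (54.5%, counting interval 23.4 to 83.3, which holds 37.2%). Among them Duxf3, the Dux gene that turns on Zscan4, was in type 2 and Dppa4 in type 5. Other oocyte genes were in type 1 in 5 of 23 cases (21.7%, counting interval 7.46 to 43.7, which also holds 37.2%). In type 3 were 16 of them (69.6%), against 33.8% of all protein-coding genes, with Sohlh1 in type 4 and Kit in type 2. Genes of repressors of the 2-cell programme were in type 1 in 12 of 15 cases (80.0%), with Uhrf1, a DNA methylation factor whose protein Pramel7 is known to destabilise, in type 2. Of other gene families, 13 of 18 Nlrp genes (72.2%) were in type 1, with Nlrp1a, Nlrp1b and Nlrp10 in type 4. Of the type 1 vomeronasal receptor genes, 167 of 229 (72.9%) were in type 1. In type 5 were 40 (17.5%), against 9.53% of all protein-coding genes. No test was made between the lists.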

How the data were processed

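The libraries were made by CUT&RUN with antibodies to H2Aub or H3K27me3. The tools named, per the submitters' processing notes, were deepTools 3.0.2, Picard 2.8.0, Bowtie2 2.3.4.3 and Trim Galore 0.4.5, with the build mm10. The authors deposited 1 table of ChromHMM types of H2Aub, 31563 segments whose value is a type label from 1 to 5 and no level. The sources used here give neither ChromHMM's version nor its input libraries nor what the types mean.

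Segments were read as 492539 bins of 5 kb, with the shorter segment used where 2 overlapped (0.053% of bins). A gene's type covered most of its RefSeq body (GRCm38.p6), and 333 genes on scaffolds, none of them members, were left out. A cluster was 2 or more members with gaps of at most 500 kb. Windows were aligned end to end with free end gaps by Biopython 1.88 (match 1, mismatch -1, gap opening -2, extension -0.5). The counting was tested on simulated data.

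The members and lists were chosen with earlier results of these data known. Named were all members of families of at most 12, in Pramel each cluster's first and last member and those off its leading type, bordering genes, and list genes outside types 1 and 3. Genes named outside this rule were chosen after their values were seen, as were the shared runs, the TATAA strings, the start-site bins and the omission of chromosome 5. Protein identity was not compared, since no protein table was used.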

Additional observations from a re-analysis of the deposited data

How the results depend on the processing

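Of 134 alternatives to 24 results, 115 stayed within the main value's 95% counting interval and 19 moved outside it. The intervals of small families were wide (19.4 to 99.4% for Oog), and the shares of the types describe the same members. The intervals of the windows count neighbouring bins of shared segments. This tally therefore does not measure how stable the results are. The members' share in type 1 ranged from 79.6% to 90.5% over 10 alternatives. These included other rules for a gene's type, start-site bins and leaving out chromosome 5. The 90.5% came from adding the families' loci annotated as pseudogenes or other non-coding types (114 of 126), which are not members. Counting each cluster once took the type 3 share to 0.0%, from 6.94%, since it keeps only leading types. The type 1 share of the cluster windows, 85.3%, was 89.9% with 50 kb flanks, 76.4% with 250 kb flanks, 82.0% with gaps of 100 kb, 82.2% with gaps of 1 Mb and 61.4% in the flanks alone. Of 27 alternatives for single clusters, 10 moved. TATAA in place of TATAAA gave 69.5% of member windows, in place of 37.3%. A run of 100 bases gave 50.8%, in place of 72.9% with 50 bases. No paired analysis was possible because the table has no column per library. The bin of 5 kb is longer than many members, so differences within a gene are not resolved, and the members of an array share segments. Depth and the spread between libraries are unknown.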
